A study of Mus musculus with 7 samples.

Results

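The erythroid regulators, membrane skeleton and surface genes are a set of 35 named mouse genes of red cell formation, of which 34 were found in the expression table by symbol and had a mean of at least 1 FPKM over the 7 libraries (FPKM, the sequenced fragments of a gene divided by its transcript length and by the size of the library). They are 34 of the 11378 genes at that level and of 17920 genes in all. The other, Ahsp, the chaperone of alpha-globin, was not analysed here. The members were named for their known roles with earlier results of these data known, so their counts against all genes describe them and are no independent support, and they were kept by their mean level. No member found in the table lay below the limit, and the lowest mean levels were 2.43 FPKM for Tfr2 and 2.55 FPKM for Trim58. All members found therefore entered the tests.

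RNA was taken from crushed spleens of C57BL/6 mice aged 8 weeks. The design text counts 4 wild-type and 3 GdX-/- mice, as many as there are libraries, and no label ties a library to a mouse, so p-values measure the spread between these libraries. Every mouse had received 20 mg/kg lipopolysaccharide (LPS, a bacterial cell wall component) intraperitoneally, and no spleen without LPS was analysed here. Spleens were collected at 90 min from wild type (n = 2) and GdX-/- mice (n = 2), and at 6 h from wild type (n = 2) and a single GdX-/- mouse. The series title writes the mutant genotype as GdX-/Y. GdX is the protein of the X-linked gene Ubl4a. The labels do not say which cells carry the deletion, so it is given here as they give it.

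Mouse spleen makes red cells throughout life, and stress such as blood loss or inflammation can enlarge this activity. Erythroid precursors follow erythropoietin, sensed by the receptor Epor, and a small group of transcription factors including Gata1, Tal1 and Klf1 switches on the genes for globins, haem synthesis and the red cell membrane. That membrane rests on a spectrin and actin skeleton which is tied to transport proteins in the bilayer, and in the last steps the cell expels its nucleus and clears its mitochondria.

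Within these libraries, the erythroid genes differed along both axes of the design. In wild-type spleen 24 of 34 members fell between 90 min and 6 h, where 6.32% of all genes tested fell, with a median log2 difference of -1.51. In the GdX-deficient library at 6 h, 23 of 34 members were higher than in wild type, where 2.91% of all genes were, with a median log2 difference of 1.97 that rests on 1 library. At 90 min the median log2 difference was 0.84 in the same direction, and no single member passed the test. From 90 min to 6 h in GdX-deficient spleen, no member passed the test, and the levels, from 1 library at 6 h, differed among the transcription factors. Tal1 stood at 61.8% and Klf1 at 85.3% of the 90 min level, and Gata1 at 118% and Nfe2 at 139.8%. The 16 membrane genes ranged from 52.7% to 86.4%, with a median of 63.5%, so Tal1 and Klf1 lay within their range. Car1 (132.2%) and Trim58 (105.4%), which are not transcription factors, also stood above the 90 min level. Of all genes, 56.8% lay above both GdX-deficient libraries of 90 min. A difference between the classes was not tested.

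The estimated depth was between 19700000 and 21400000 mapped fragments per library. Globins took between 7.73% and 30.9% of the FPKM sum of a library. At the targeted locus, Ubl4a stood at 4.03 and 5.69 FPKM in the libraries labelled GdX-/- against 5.62 and 7.50 FPKM in wild type at 90 min, and at 10.6 FPKM against 11.9 and 14.0 FPKM at 6 h. It overlapped between genotypes at 90 min and passed no genotype test (limma adjusted p = 0.661 at 90 min and 0.656 at 6 h), so its level does not check the labels, and whether the reads come from the deleted stretch is not given. The entry Gm44504 at this locus stood at 0.660 to 1.86 FPKM against 14.5 to 51.1 FPKM and was lower with time as covariate (-3.42, limma adjusted p = 0.00725). Libraries are called GdX-deficient here by their labels. Replicates of wild type differed along transcript length. Across the 34 members, which share their libraries, Spearman's rho between length and the difference of replicate 2 from replicate 1 was 0.283 at 90 min and 0.353 at 6 h in wild type and -0.0115 in GdX-deficient spleen at 90 min. Over the 11180 genes with a length it was 0.434, 0.581 and 0.169. Replicate 2 was the higher one for 24 of 34 members in wild type at 90 min, 26 in wild type at 6 h and 23 in GdX-deficient spleen at 90 min, against 61.9%, 68.3% and 69.2% of all genes. Replicate 1 of wild type gave the lowest values of several long members. Without replicate 1 of wild type at 90 min, limma called 0 members between genotypes at 90 min (0.0527% of all genes; median log2 difference of the members 0.71) and 17 with time in wild type (3.96%; -1.62). Dropping replicate 1 of the wild-type 6 h pair left 23 calls between genotypes at 6 h (6.16% of all genes; 1.76) and 22 with time in wild type (13.3%; -1.31).

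The adult beta-globin genes separated all GdX-deficient from all wild-type libraries. Hbb-b1 stood at 44998 and 32880.2 FPKM in GdX-deficient spleen at 90 min and at 16576.7 FPKM at 6 h, against 6.70 to 13.8 FPKM in the 4 wild-type libraries. Hbb-b2 stood at 4059 to 11053 FPKM against 1.55 to 4.68 FPKM. These were the only genes called at 90 min (limma adjusted p = 1.62e-07 and 2.90e-07). Hbb-bs and Hbb-bt, the adult pair annotated for the C57BL/6 haplotype, were present in every library, at 3194 FPKM or more, and passed no genotype test at either time. Inbred mouse strains carry different beta-globin haplotypes, all groups are labelled C57BL/6, and in these libraries the deletion and the beta-globin haplotype expressed cannot be told apart. How reads were shared between these near-identical genes is not given.

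**Figure D1:**
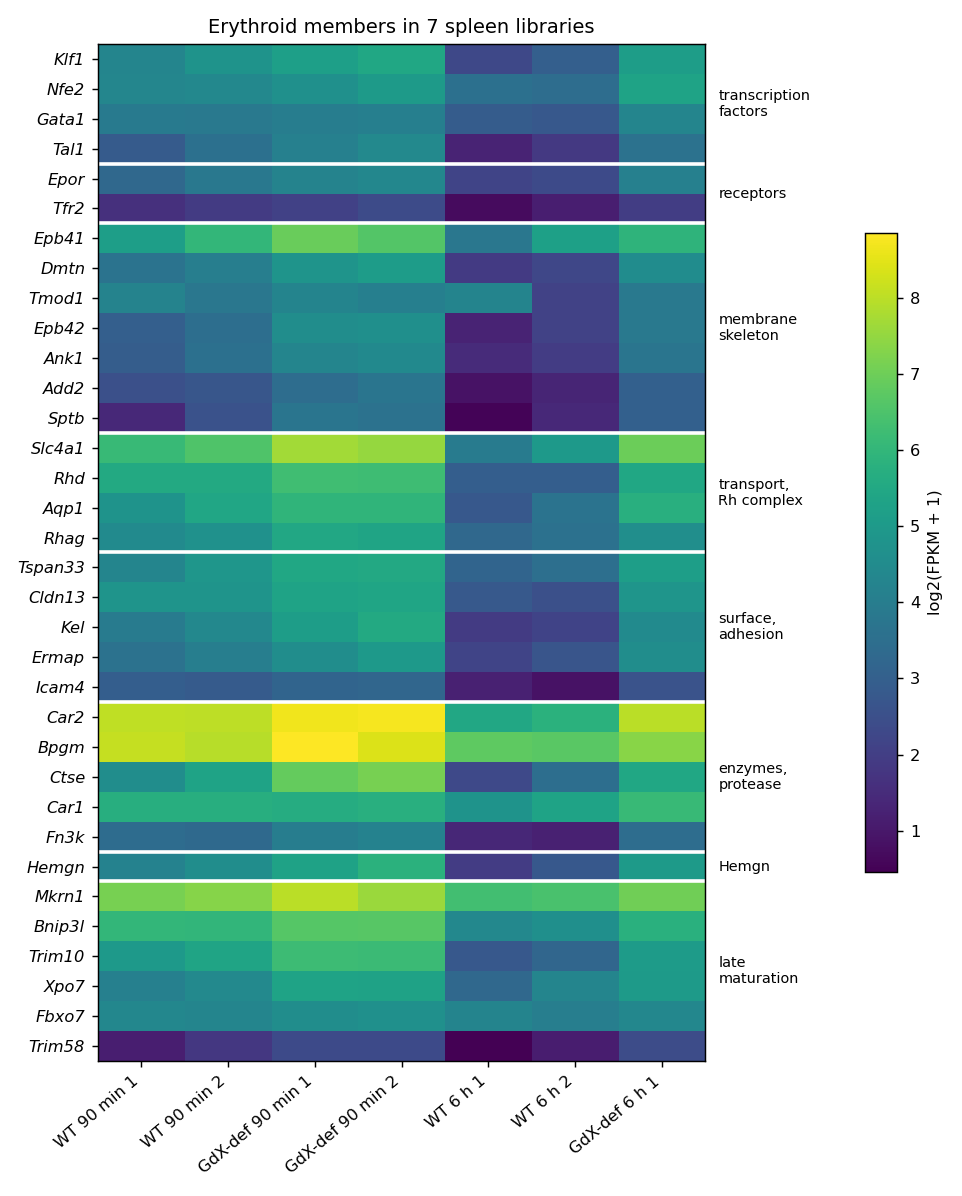
Level of each of the 34 members, as log2(FPKM + 1) by colour, in the 7 spleen libraries (columns, WT for wild type and GdX-def for GdX-deficient), grouped by role. The columns of wild type at 6 h are the darkest for most genes, with values such as 6.75 and 6.84 FPKM for Rhd, and the columns of GdX-deficient spleen at 90 min the brightest.

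Transcription factors come first. Klf1, the Krüppel-like factor that activates adult beta-globin and many membrane genes, stood at 18.2 and 26.5 FPKM in wild type and at 36.0 and 43.3 FPKM in GdX-deficient spleen at 90 min. By 6 h the wild-type libraries held 3.84 and 6.91 FPKM and the GdX-deficient one 33.8 FPKM. No wild-type library, at either time, reached the GdX-deficient level of 6 h. Klf1 fell with time in wild type by 1.89 on the scale of log2(FPKM + 1), where the standard error (SE) was 0.33 and the adjusted p in limma, a moderated linear model over all genes, was 0.0104. Its genotype difference was 0.82 at 90 min (SE 0.33, limma adjusted p = 0.621) and 2.49 at 6 h (SE 0.40, limma adjusted p = 0.0195), the latter on the assumption that the single library varies like the other groups. That assumption holds for every test at 6 h given here.

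Tal1, a basic helix-loop-helix factor that works in a complex with Gata1, followed the same pattern. It stood at 6.31 and 10.6 FPKM in wild type and at 16.3 and 20.1 FPKM in GdX-deficient spleen at 90 min. At 6 h the levels were 1.44 and 2.59 FPKM in wild type against 11.2 FPKM. Tal1 fell by 1.64 in wild type (SE 0.35, limma adjusted p = 0.0200) and was higher by 2.05 in the GdX-deficient library at 6 h (SE 0.43, limma adjusted p = 0.0382).

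Gata1 had the smallest difference of the 4 factors at 90 min, where none passed. Gata1, the zinc finger factor that erythroid, megakaryocytic, mast and eosinophil lineages all use, stood at 13.7 and 13.5 FPKM in wild type and at 15.0 and 15.8 FPKM in GdX-deficient spleen at 90 min. The levels at 6 h were 6.52 and 5.87 FPKM in wild type and 18.2 FPKM in GdX-deficient spleen. At 90 min the genotypes differed by 0.17 (SE 0.27, limma adjusted p = 0.812), although their libraries did not overlap. Gata1 fell by 1.03 in wild type (SE 0.27, limma adjusted p = 0.0412) and was higher by 1.42 in the GdX-deficient library at 6 h (SE 0.33, limma adjusted p = 0.0477). The call at 6 h was lost with quantile normalization, an equal sum without globins and members, a mean of 5 FPKM or no filter. It was also lost with some single libraries left out.

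Nfe2, a basic leucine zipper factor of erythroid cells and of platelet formation, had its highest level of all libraries in GdX-deficient spleen at 6 h. It stood at 18.9 and 20.0 FPKM in wild type and 24.7 and 31.7 FPKM in GdX-deficient spleen at 90 min, and at 10.8 and 9.92 FPKM against 39.4 FPKM at 6 h. The difference was 0.50 at 90 min (SE 0.26, limma adjusted p = 0.621). That of 1.83 at 6 h passed the test (SE 0.32, limma adjusted p = 0.0275), and the wild-type difference with time of -0.85 did not (SE 0.26, limma adjusted p = 0.0706).

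**Figure D2:**
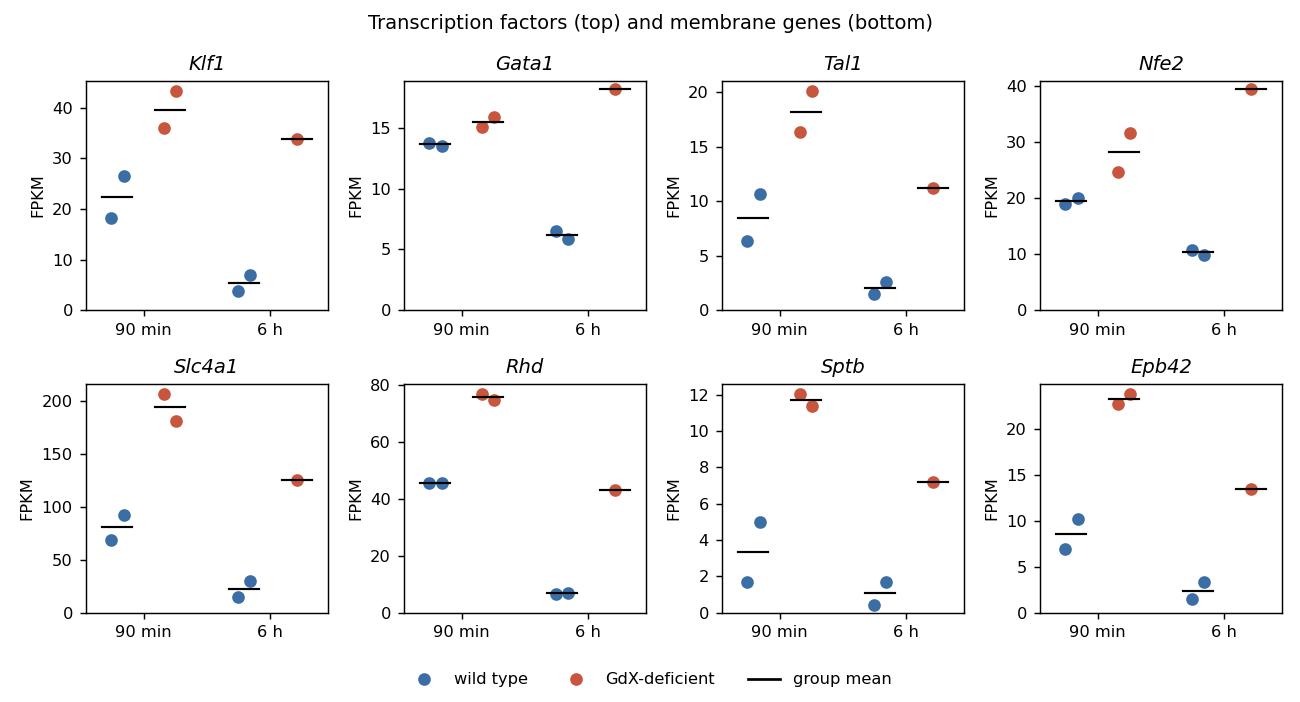
FPKM of the 4 transcription factors (top row) and of Slc4a1, Rhd, Sptb and Epb42 (bottom row) in each library, by time after LPS. Points are libraries and black lines are group means, and the single GdX-deficient library at 6 h lies above both wild-type libraries in all 8 panels.

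Sequence just upstream of a RefSeq start of 6 members is shown because the GATA and KLF factors above have known sites in erythroid promoters. They are examples with and without a GATA site, picked after values were seen. The stretches run from 100 bases before the RefSeq start (build GRCm38.p6, read 5′ to 3′ on the gene's strand) and end before any exon of that gene in the GENCODE annotation. The Gata1 stretch lies inside the RefSeq span of its gene, as do the last bases of the Rhag and Ermap stretches. The Rhag hexamer is among these bases. Capitals mark the GATA hexamers AGATAA or TGATAA and the CACCC box of KLF factors, searched as CCNCNCCC, each on both strands, so TTATCA and TTATCT are GATA hexamers on the other strand.
Klf1 (chr8:84901882-84901927, plus strand): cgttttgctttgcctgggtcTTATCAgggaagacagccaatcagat
Gata1 (chrX:7967911-7968010, minus strand): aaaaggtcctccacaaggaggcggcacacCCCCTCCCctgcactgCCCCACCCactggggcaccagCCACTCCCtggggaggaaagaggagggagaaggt
Epor (chr9:21963577-21963676, minus strand): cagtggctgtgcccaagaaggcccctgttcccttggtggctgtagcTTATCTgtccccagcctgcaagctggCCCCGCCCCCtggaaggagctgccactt
Rhd (chr4:134864436-134864535, plus strand): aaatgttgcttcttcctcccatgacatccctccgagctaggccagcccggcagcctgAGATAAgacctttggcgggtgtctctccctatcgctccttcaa
Rhag (chr17:40811049-40811125, plus strand): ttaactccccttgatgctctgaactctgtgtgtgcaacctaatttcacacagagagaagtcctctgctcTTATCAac
Ermap (chr4:119190012-119190095, minus strand): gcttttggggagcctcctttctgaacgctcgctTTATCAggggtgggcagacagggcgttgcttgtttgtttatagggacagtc

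The GATA hexamer began at -80 in Klf1, -54 in Epor, -43 in Rhd, -31 in Rhag and -67 in Ermap, counted from the RefSeq start. Gata1 had no such hexamer and 3 CACCC boxes in this stretch. RefSeq promoters were matched for 23 of the 34 members, with 30 starts. A GATA hexamer lay within 250 bases before the start in 12 of these 30 promoters (40%), against 16.6% of all 32851 RefSeq promoters and 9.79% of those of tested genes. By gene, this was 12 of 23 members (52.2%) against 11.7% of the 9146 tested genes with a promoter entry. These 12 were Epb42, Epor, Ermap, Hemgn, Icam4, Kel, Klf1, Rhag, Rhd, Tal1, Tfr2 and Trim10. The CACCC box lay in 60.0% of member promoters against 45.9% of all, and against 62.0% of promoters of tested genes. The site TGAGTCA, shared by NFE2 and AP-1 factors and equal to TGACTCA on the other strand, lay in 6.67% against 4.46% of all and 3.31% of those of tested genes. The E-box CANNTG lay in 56.7% against 66.2% of all and 57.6% of promoters of tested genes. These shares describe the letters in the windows and say nothing of binding.

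Receptors came next. Epor, the erythropoietin receptor, stood at 8.89 and 13.2 FPKM in wild type and 17.4 and 19.4 FPKM in GdX-deficient spleen at 90 min. Later, at 6 h, wild type held 3.57 and 4.12 FPKM and the GdX-deficient library 16.4 FPKM, near the GdX-deficient levels at 90 min. Epor fell by 1.29 in wild type (SE 0.30, limma adjusted p = 0.0274) and was higher by 1.85 in the GdX-deficient library at 6 h (SE 0.37, limma adjusted p = 0.0355). Tfr2, an iron-sensing transferrin receptor that associates with Epor, was lower in level, at 2.06 and 2.76 FPKM against 3.22 and 4.19 FPKM at 90 min. Its 6 h levels were 0.630 and 1.25 FPKM against 2.93 FPKM. No comparison of Tfr2 passed in the main fits, those without an alternative setting, though it was called under some alternatives.

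None of the 7 membrane skeleton genes passed between genotypes at 90 min (0.0176% of all genes did), where their log2 differences ran from 0.17 (Tmod1) to 1.66 (Sptb), and 4 of 7 were called higher at 6 h (2.91% of all genes). Sptb, beta-spectrin, stood at 1.68 and 4.98 FPKM in wild type and at 12.03 and 11.4 FPKM in GdX-deficient spleen. The 6 h values were 0.440 and 1.69 FPKM against 7.21 FPKM. The ratio of group means at 90 min was 3.51, the second largest of all members after Ctse, yet the log2 difference of 1.66 did not pass (SE 0.43, limma adjusted p = 0.520), and it was 1.09 without replicate 1 of wild type. Sptb has the longest transcript of the members (10394 bases), and its wild-type replicates were the furthest apart at 90 min. Its difference at 6 h of 2.06 did not pass either (SE 0.53, limma adjusted p = 0.0580).

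Epb42, which ties the anion exchanger to the skeleton, stood at 6.91 and 10.2 FPKM against 22.7 and 23.8 FPKM at 90 min, and at 1.46 and 3.31 FPKM against 13.5 FPKM at 6 h. Ank1, the ankyrin that anchors spectrin, stood at 6.71 and 10.7 FPKM against 18.3 and 20.7 FPKM at 90 min, and at 1.81 and 2.83 FPKM against 12.2 FPKM at 6 h. For both genes each GdX-deficient library exceeded both wild-type libraries of its time, as for 19.0% of all genes. At 6 h this rests on 1 GdX-deficient library. Add2, the beta-adducin that caps actin filaments, stood at 4.73 and 5.53 FPKM against 9.95 and 12.2 FPKM at 90 min, and at 0.840 and 1.48 FPKM against 7.18 FPKM at 6 h. Dmtn, the actin-bundling dematin, stood at 11.6 and 15.3 FPKM against 26.8 and 33.6 FPKM at 90 min, and at 2.66 and 3.78 FPKM against 22.0 FPKM at 6 h. These 4 genes fell with time in wild type, by 1.52 (Add2) to 1.78 (Dmtn), with limma adjusted p from 0.00918 (Dmtn) to 0.0263 (Epb42). In the GdX-deficient library at 6 h they were higher by 1.94 (Add2) to 2.46 (Dmtn), with limma adjusted p from 0.0163 to 0.0355.

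Epb41 and Tmod1, which many cell types express, passed no test in the main fits, though each was called under some alternatives. Epb41, a protein of the spectrin and actin junction, stood at 35.2 and 63.2 FPKM against 122 and 95.6 FPKM at 90 min, and at 12.7 and 36.7 FPKM against 59.1 FPKM at 6 h. Tmod1, which caps the other end of actin filaments, stood at 17.3 and 12.6 FPKM against 17.9 and 15.8 FPKM at 90 min, and at 18.0 and 3.28 FPKM against 13.3 FPKM at 6 h. Tmod1 was the only member whose wild-type libraries at 6 h lay on both sides of the GdX-deficient one, and its direction at 6 h depends on replicate 2 of wild type: without it the difference was -0.41.

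Among transporters, Slc4a1, the chloride and bicarbonate exchanger that anchors the skeleton, was the most abundant. It stood at 68.7 and 92.6 FPKM against 207 and 181 FPKM at 90 min, and at 14.6 and 30.1 FPKM against 125 FPKM at 6 h. Its GdX-deficient level at 6 h was above every wild-type library at either time. Slc4a1 fell by 1.87 in wild type (SE 0.34, limma adjusted p = 0.0121) and was higher by 2.52 in the GdX-deficient library at 6 h (SE 0.42, limma adjusted p = 0.0221).

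Rhd and Rhag form the Rh complex of the red cell membrane. Rhd stood at 45.7 and 45.5 FPKM in wild type and at 77.0 and 74.8 FPKM in GdX-deficient spleen at 90 min, with replicates close together. Its 6 h levels were 6.75 and 6.84 FPKM in wild type and 43.3 FPKM in GdX-deficient spleen. Rhd had the smallest p of all members with time in wild type, a fall of 2.58 (SE 0.24, limma adjusted p = 0.000943), and at 6 h between genotypes (2.51, SE 0.29, limma adjusted p = 0.00684). Rhag stood at 21.2 and 24.8 FPKM against 43.6 and 39.9 FPKM at 90 min, and at 8.90 and 10.9 FPKM against 23.4 FPKM at 6 h. It fell in wild type by 1.14 (SE 0.26, limma adjusted p = 0.0264), while its difference of 1.17 at 6 h did not pass (limma adjusted p = 0.0661). Aqp1, a water channel of red cells and of endothelium, stood at 26.4 and 41.7 FPKM against 60.2 and 61.5 FPKM at 90 min. Its values at 6 h were 5.88 and 11.6 FPKM against 52.6 FPKM, a difference of 2.52 that passed (SE 0.43, limma adjusted p = 0.0234).

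All 5 surface and adhesion genes fell with time in wild type (6.32% of all genes did) and were higher in the GdX-deficient library at 6 h (2.91%). Kel, a metalloprotease that carries the Kell blood group in humans, stood at 14.3 and 19.8 FPKM against 33.9 and 45.8 FPKM at 90 min, and at 2.73 and 3.43 FPKM against 21.0 FPKM at 6 h. Cldn13, a claudin, stood at 27.2 and 26.7 FPKM against 39.1 and 40.6 FPKM at 90 min, and at 5.93 and 4.71 FPKM against 27.7 FPKM at 6 h. Cldn13 in the GdX-deficient library at 6 h was thus about at the wild-type level of 90 min. Ermap, an erythroid immunoglobulin superfamily protein, stood at 11.4 and 15.5 FPKM against 22.7 and 30.5 FPKM at 90 min, and at 3.50 and 5.30 FPKM against 22.7 FPKM at 6 h. Tspan33, a tetraspanin also found in activated B cells, stood at 18.2 and 28.1 FPKM against 43.4 and 45.1 FPKM at 90 min, and at 8.03 and 10.4 FPKM against 34.4 FPKM at 6 h. The GdX-deficient libraries of these genes, and of Icam4, lay above the wild-type ones of the same time, as did 19.0% of all genes. Icam4, an adhesion molecule of erythroblasts and their macrophages, was the lowest of the 5, at 6.84 and 6.29 FPKM against 7.96 and 8.40 FPKM at 90 min, and at 1.35 and 0.820 FPKM against 5.01 FPKM at 6 h. Its wild-type values at 6 h rest on about 28 and 16 fragments. The call of Icam4 between genotypes at 6 h was lost with quantile normalization, an equal sum without globins and members, a mean of 5 FPKM or no filter. The log2 falls in wild type ran from -1.22 (Tspan33) to -2.15 (Cldn13), and the differences at 6 h from 1.54 (Icam4) to 2.44 (Kel), with limma adjusted p from 0.0154 to 0.0463.

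Of the 5 genes for cytosolic enzymes or a protease, 4 fell with time in wild type and 3 were higher at 6 h in the GdX-deficient library (6.32% and 2.91% of all genes). Car2, the fast carbonic anhydrase, stood at 263 and 256 FPKM against 409.7 and 423 FPKM at 90 min, and at 44.3 and 55.3 FPKM against 254 FPKM at 6 h. Car1, the other abundant red cell carbonic anhydrase, stood at 52.0 and 52.1 FPKM against 49.5 and 53.2 FPKM at 90 min, and at 26.3 and 39.2 FPKM against 67.9 FPKM at 6 h. Car2 was thus higher in both GdX-deficient libraries at 90 min while Car1 overlapped, and Car1 was the only member with a log2 difference below 0 then (-0.02). Car2 fell by 2.37 in wild type (SE 0.24, limma adjusted p = 0.00131) and differed by 2.34 at 6 h (SE 0.30, limma adjusted p = 0.00967). No comparison of Car1 passed in the main fits, though Car1 was called under some alternatives.

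Bpgm, which makes the phosphoglycerate that lowers the oxygen affinity of haemoglobin, kept the same genotype ratio at both times. It stood at 276 and 244 FPKM against 461 and 340.2 FPKM at 90 min, and at 109 and 104 FPKM against 165 FPKM at 6 h, a ratio of group means of 1.54 at each time. It fell by 1.28 in wild type (SE 0.26, limma adjusted p = 0.0170), and the difference in GdX-deficient spleen was -1.26 (limma adjusted p = 0.211). Fn3k, a kinase that removes sugars from glycated protein, stood at 9.63 and 8.91 FPKM against 15.2 and 17.1 FPKM at 90 min, and at 1.60 and 1.36 FPKM against 9.89 FPKM at 6 h. Hemgn, a nuclear protein of blood precursors, stood at 16.9 and 22.7 FPKM against 38.2 and 55.0 FPKM at 90 min, and at 2.84 and 5.81 FPKM against 31.6 FPKM at 6 h. Its ratio of 7.31 at 6 h was the largest of the members, and both genes passed the test there (Fn3k 2.14, Hemgn 2.67, limma adjusted p = 0.0195 for each).

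Ctse, the aspartic protease cathepsin E, stood at 22.6 and 38.7 FPKM against 117 and 139 FPKM at 90 min, and at 4.00 and 10.1 FPKM against 42.5 FPKM at 6 h. It had the largest genotype ratio of the members at 90 min, 4.16. It was the only member called when genotype was fitted with time as a covariate, 3 libraries against 4, with a log2 difference of 2.26 (SE 0.31, limma adjusted p = 0.0368). Over the alternatives its limma adjusted p ranged from 0.00273 to 0.510. Ctse no longer passed without replicate 2 of GdX-deficient spleen at 90 min or the 6 h GdX-deficient library, nor with a pseudocount of 0.1, another filter on low values or no trend.

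The genes of the last maturation steps are given next. Trim10, an erythroid RING finger protein, stood at 30.3 and 39.8 FPKM against 73.0 and 70.8 FPKM at 90 min, and at 5.84 and 8.41 FPKM against 32.2 FPKM at 6 h. Bnip3l, the mitophagy receptor that clears mitochondria from reticulocytes, stood at 64.3 and 62.0 FPKM against 99.5 and 101 FPKM at 90 min, and at 19.9 and 23.8 FPKM against 54.3 FPKM at 6 h. Both fell in wild type (Trim10 by 2.16, Bnip3l by 1.496) and both were higher at 6 h in the GdX-deficient library (2.05 and 1.28, limma adjusted p = 0.0222 and 0.0464). Bnip3l lost its call at 6 h with quantile normalization, an equal sum without globins and members, no trend, a mean of 5 FPKM or no filter. The same held with most single libraries left out. Mkrn1, a ubiquitin ligase, stood at 139.8 and 159.8 FPKM against 251 and 192 FPKM at 90 min, and at 78.0 and 85.6 FPKM against 129 FPKM at 6 h. Xpo7, a nuclear export receptor of enucleating cells, stood at 16.1 and 20.4 FPKM against 38.7 and 37.8 FPKM at 90 min, and at 8.69 and 18.2 FPKM against 32.0 FPKM at 6 h. In the main fits neither passed between genotypes or with time in wild type. Their GdX-deficient libraries lay above the wild-type ones of the same time, as did 19.0% of all genes. Fbxo7, an F-box protein, varied least, from 15.4 to 24.4 FPKM over the 7 libraries. Trim58, a ubiquitin ligase of enucleation, stood at 1.22 and 2.52 FPKM against 4.11 and 4.11 FPKM at 90 min, and at 0.370 and 1.2 FPKM against 4.33 FPKM at 6 h. The lowest of these values rests on about 17 fragments.

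Genotype at 90 min was tested across all genes first. No member passed in limma, where 0.0176% of the genes tested were called. At an unadjusted p under 0.05, 25 of 34 members were higher and 0 lower, against 3.16% and 4.41% of all genes. In 32 of 34 members both GdX-deficient libraries exceeded both wild-type libraries, against 24.1% of all genes. The exceptions were Car1 and Tmod1. At least 2-fold differences on the fitted scale were seen in 12 members, against 1.78% of all genes. The median log2 difference of the members was 0.84 and that of all genes 0.07. By role, the median was 0.66 for the 4 transcription factors, 1.11 for the 7 skeleton genes, 0.84 for the 4 transport genes, 0.93 for the 5 surface genes and 0.76 for the 6 maturation genes. The count of calls depended on the libraries in the fit. With the 4 libraries of this comparison alone, limma called 1.59% of all genes and 9 members (Ctse, Dmtn, Epb41, Epb42, Hemgn, Kel, Slc4a1, Sptb and Trim10). It called 7 with either wild-type library of 6 h dropped (1.52% and 1.61% of all genes), and 2 (Ctse and Sptb) when replicate 2 of wild type at 90 min was left out (0.369%).

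With time as covariate, Ctse was the only call among the members, where 0.0439% of all genes were called. At an unadjusted p under 0.05, 31 of 34 were higher, against 17.8% of all genes. For 32 of 34 members every GdX-deficient library exceeded every wild-type library of the same time, against 19.0% of all genes. The median log2 difference was 1.29, against 0.16 for all genes. Single libraries decided this count. Leaving out replicate 1 of GdX-deficient spleen at 90 min gave 25 calls (14.7% of all genes) and leaving out wild-type replicate 2 of that time gave 20 (2.13%), while 0 passed when replicate 2 of GdX-deficient spleen at 90 min or the 6 h GdX-deficient library was left out.

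At 6 h, limma called 23 members higher and 0 lower in the GdX-deficient library, where 2.91% of all genes were called higher and 1.05% lower. For 33 of 34 members, all but Tmod1, the GdX-deficient library lay above both wild-type libraries, against 54.9% of all genes. Below both lay 0 members and 25.3% of all genes. Here 1 library is set against 2. The median ratio of FPKM over the members was 5.13, from 1.14 (Fbxo7) to 7.31 (Hemgn). The median log2 difference was 1.97 for the members and 0.32 for all genes, and scaling moved the latter to -0.02 after quantile normalization and 0.55 when libraries were brought to an equal sum without globins and members. Relative to the median of all genes, the members' median was higher by 1.66, and by 1.53 and 1.61 under these scalings. By role it was 1.94 for transcription factors, 2.11 for the 16 membrane genes and 1.28 for maturation genes. Without a filter on low values 3 members were called (Car2, Cldn13 and Rhd), and 0.502% of all genes. In the main fit, Tfr2, Sptb, Epb41, Tmod1, Rhag, Car1, Bpgm, Trim58, Xpo7, Mkrn1 and Fbxo7 were not called at 6 h.

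**Figure D3:**
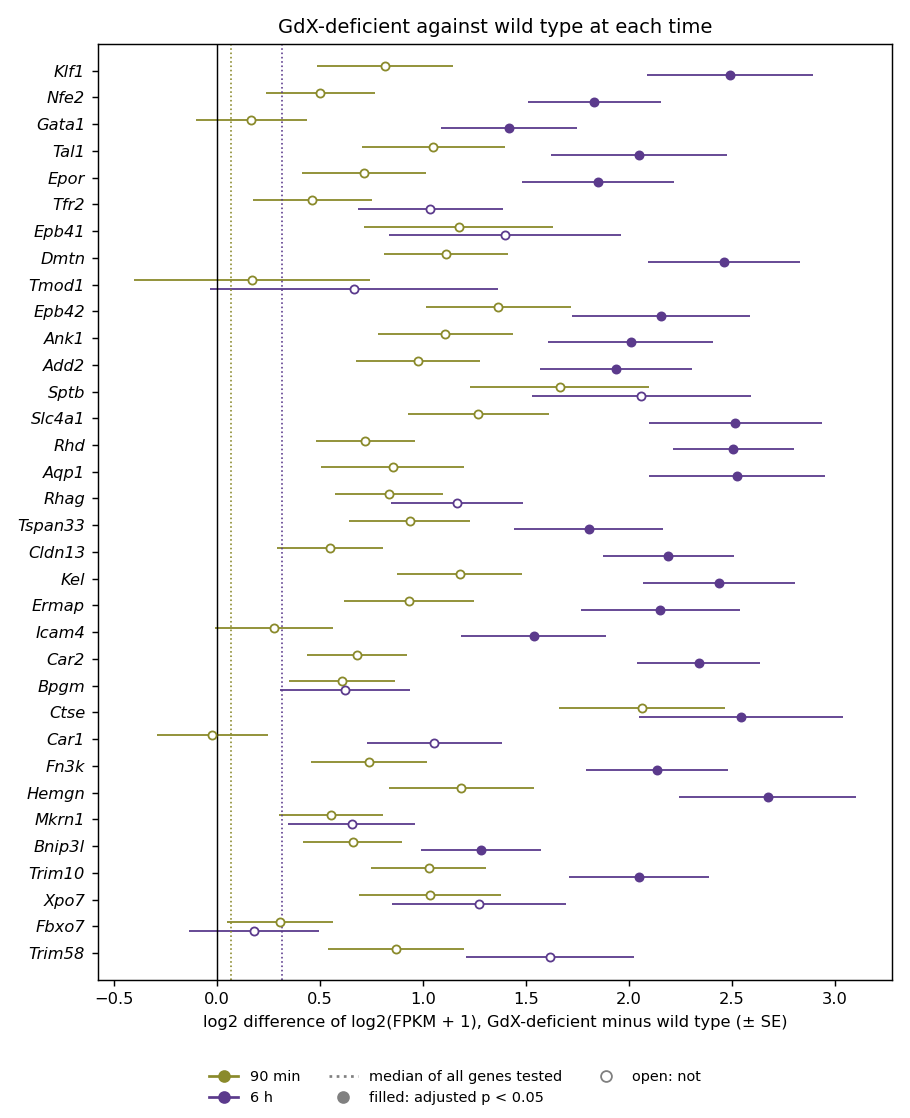
Log2 difference of log2(FPKM + 1) between GdX-deficient and wild-type spleen at 90 min and at 6 h for each of the 34 members, with the moderated standard error. Filled points have a limma adjusted p under 0.05, dotted lines mark the median of all genes tested (0.07 and 0.32), and 23 members are filled at 6 h and none at 90 min.

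Time after LPS was compared within each genotype. In wild type 24 of 34 members fell and 0 rose, where 6.32% of all genes fell and 4.39% rose. For 30 of 34 members both libraries at 6 h lay below both at 90 min, against 27.6% of all genes. The median share of the 90 min level that remained at 6 h was 29.95%, from 14.9% (Rhd) to 88.7% (Fbxo7). The 10 members not called were Nfe2, Tfr2, Sptb, Epb41, Tmod1, Car1, Trim58, Xpo7, Mkrn1 and Fbxo7. Testing all genes with no filter left 11 calls (3.54% of all genes), and dropping replicate 2 of the wild-type 90 min pair left 14 (4.83%). This comparison and the genotype difference at 6 h share the wild-type libraries of 6 h, so the falls in the former and the differences in the latter are not independent of each other.

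In GdX-deficient spleen no member passed in limma, where 0% of genes were called. Unadjusted p was under 0.05 for 9 members, all lower, against 2.10% of all genes. The 6 h library lay below both 90 min libraries for 30 members, against 15.8% of all genes, and above both for 4 (Gata1, Nfe2, Car1 and Trim58), against 56.8% of all genes. The median share of the 90 min level was 64.6%, from 33.3% (Ctse) to 139.8% (Nfe2). Without either replicate of wild type at 6 h, which enters only the spread, Bpgm and Ctse were called lower, and 2.03% and 2.07% of all genes were called. With genotype as covariate, 3 libraries against 4, 19 members fell and 0 rose, where 2.65% of all genes fell and 2.79% rose. With 1 library left out this count was 6 (replicate 1 of wild type at 90 min, or replicate 2 at 6 h), 7 (replicate 2 of wild type at 90 min), 9 (replicate 1 of wild type at 6 h), 11 (replicate 2 of GdX-deficient spleen at 90 min), 16 (its replicate 1) and 24 (the 6 h GdX-deficient library), with between 1.35% and 10.6% of all genes called.

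**Figure D4:**
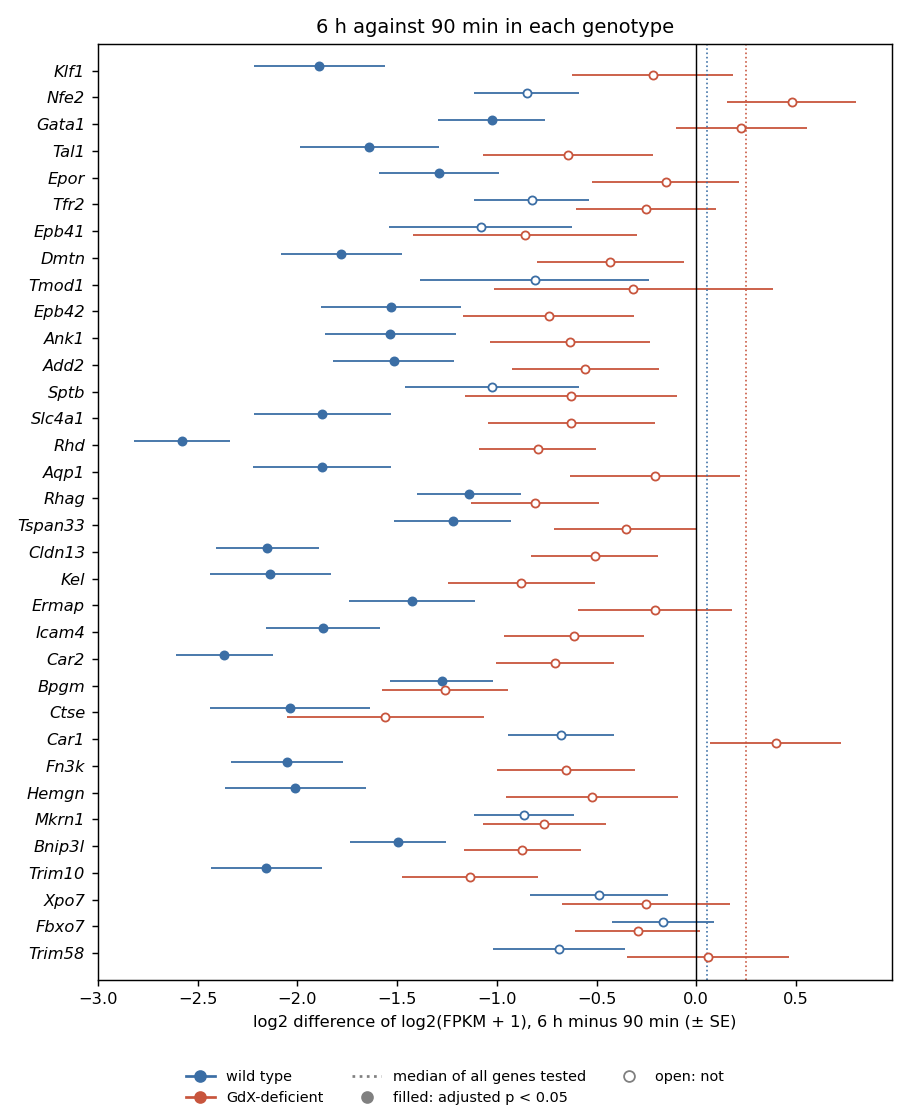
Log2 difference of log2(FPKM + 1) between 6 h and 90 min in wild-type and in GdX-deficient spleen for each of the 34 members, with the moderated standard error. Filled points have a limma adjusted p under 0.05, which 24 members reach in wild type and none in GdX-deficient spleen, and dotted lines mark the median of all genes tested (0.05 and 0.25).

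Whether the genotype difference changed with time was tested as an interaction, which rests on the single GdX-deficient library at 6 h. No member passed in limma, where 0.0703% of all genes were called, and 17 of 34 had an unadjusted p under 0.05, all with the larger difference at 6 h, against 8.42% of all genes. The median interaction was 1.01 for members and 0.19 for all genes. For Gata1, Nfe2, Car1 and Trim58 (4 of 34 members, 11.8%) the 6 h library lay above those of 90 min in GdX-deficient spleen and below them in wild type, as for 8.31% of all genes, and none of their interactions passed. Rhd (1.78, SE 0.38, limma adjusted p = 0.124) and Car2 (1.66, SE 0.38, limma adjusted p = 0.149) had the smallest adjusted p. Without replicate 2 of wild type at 6 h, 6 members passed (Aqp1, Car2, Hemgn, Klf1, Rhd and Slc4a1), and 2.09% of all genes. Whether the fall in wild type exceeded that in GdX-deficient spleen was thus not established for any single member.

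The transcription factors were set against the membrane and late-stage genes. Their summed level was 57.2 and 70.6 FPKM in wild type and 92.0 and 110.9 FPKM in GdX-deficient spleen at 90 min. At 6 h it was 22.6 and 25.3 FPKM in wild type and 102.7 FPKM in the GdX-deficient library, between the GdX-deficient values of 90 min. The 16 membrane genes summed to 324 and 424 FPKM against 764 and 741 FPKM at 90 min, and to 95.6 and 137 FPKM against 489.6 FPKM at 6 h. The 6 maturation genes summed to 271 and 303 FPKM against 489.6 and 430.5 FPKM at 90 min, and to 131 and 153 FPKM against 271 FPKM at 6 h. In wild type all 3 sums were lower in both libraries at 6 h than in either at 90 min. In GdX-deficient spleen the sums of membrane and maturation genes were lower at 6 h and that of the transcription factors lay between its 90 min values, with Tal1 and Klf1 lower and Gata1 and Nfe2 higher. The median log2 difference with time in GdX-deficient spleen was 0.00 for the transcription factors, ranging from -0.23 to 0.12 over the alternatives, and -0.62 for the membrane genes, from -0.93 to -0.47. For all genes tested it was 0.25, above both. With 4 factors, 2 of them above 0 and 2 below, these medians are a description.

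Other genes of the erythroid programme were read from lists, whose counts stand against 6.32% of all genes that fell in wild type and 2.91% that were higher at 6 h. With so few genes a list, a count of 2 is little apart from these shares. Of 16 tested transcription regulators outside the members, 2 fell with time in wild type and 2 were higher in the GdX-deficient library at 6 h. E2f2, a cell cycle factor of terminal erythropoiesis, stood at 28.9 and 34.0 FPKM against 42.3 and 37.05 FPKM at 90 min, and at 5.75 and 9.61 FPKM against 26.5 FPKM at 6 h, and it fell in wild type by 1.93 (limma adjusted p = 0.00649). Lmo2, the bridging partner of Tal1, fell by 0.93 (limma adjusted p = 0.0421). Gfi1b, a repressor that Gata1 controls, stood at 2.4 and 2.75 FPKM against 3.95 and 6.32 FPKM at 90 min, and at 1.74 and 2.57 FPKM against 8.77 FPKM at 6 h, and Sox6 at 1.31 and 1.80 FPKM against 3.59 and 3.94 FPKM at 90 min. Gfi1b was higher in the GdX-deficient library at 6 h by 1.64 (limma adjusted p = 0.0480), and Sox6, at 0.390 and 0.380 FPKM against 1.95 FPKM then, was not called (limma adjusted p = 0.0661).

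Of 19 other membrane and surface genes, 5 fell in wild type and 3 were higher at 6 h in the GdX-deficient library. Slc14a1, the urea transporter, overlapped between genotypes at 90 min (14.2 and 15.3 FPKM against 15.99 and 12.9 FPKM) and fell in wild type by 1.67 (limma adjusted p = 0.0116).

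Of 13 genes of haem synthesis and mitochondrial iron import, 6 fell in wild type and 4 were higher at 6 h. Slc25a37, the mitochondrial iron importer, fell by 1.68 (limma adjusted p = 0.00572). Abcb10 and Cpox, of the same pathway, differed between genotypes with time as covariate by 1.49 and 1.37, neither past the threshold (limma adjusted p = 0.0915 for each). Of 19 other late-stage genes, 8 fell in wild type and 4 were higher at 6 h. Blvrb, a biliverdin reductase, fell by 1.67 (limma adjusted p = 0.00572), and Cat, catalase, and Ypel4 did not pass between genotypes with time as covariate (limma adjusted p = 0.0991 for each).

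Of 6 early progenitor genes tested, 0 passed between genotypes. Their log2 difference was above 0 for 0 of 6 at 90 min (median -0.37) and for 6 of 6 at 6 h (median 0.52), against 56.5% and 66.2% of all genes, and their difference from the members was not tested. Kit, the stem cell factor receptor, stood at 3.89 and 6.08 FPKM against 4.87 and 4.71 FPKM at 90 min, and at 2.13 and 4.53 FPKM against 5.50 FPKM at 6 h. Gata2 stood at 1.49 and 1.77 FPKM against 0.800 and 0.970 FPKM at 90 min, and at 3.16 and 4.24 FPKM against 5.15 FPKM at 6 h. The genotypes did not overlap for Gata2 at 90 min, with the GdX-deficient libraries lower, the opposite side from Gata1. Myb stood at 8.80 and 8.40 FPKM against 5.84 and 10.3 FPKM at 90 min. Gata2 rose with time when genotype was a covariate (1.18, limma adjusted p = 0.0293), while Kit and Myb passed no comparison.

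Globins, the abundant products of the late stages, differed by gene. The summed level of Hba-a1 and Hba-a2 was 105382 and 77399 FPKM in wild type and 118149 and 78375 FPKM in GdX-deficient spleen, so the genotypes overlapped. All 6 adult globin genes together, Hbb-b1 and Hbb-b2 included, took 22.3% and 19.2% of the FPKM sum in wild type and 30.9% and 23.5% in GdX-deficient spleen at 90 min, and 9.46% and 7.73% against 13.6% at 6 h, higher in GdX-deficient spleen at both times. The alpha-globin sum at 6 h was 49696 and 26555 FPKM in wild type and 43126 FPKM in the GdX-deficient library, between the wild-type values. Per 1000 FPKM of alpha-globin the 34 members summed to 12.4 and 18.5 FPKM against 20.8 and 29.8 FPKM at 90 min, and to 8.88 and 20.2 FPKM against 33.7 FPKM at 6 h.

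Markers of other cells were read beside these results, since in whole spleen fewer cells of a type and less RNA per cell cannot be told apart. All 12 megakaryocyte and platelet markers, cells that also use Gata1, Tal1 and Nfe2, were detected. Their sum was 216 and 207 FPKM in wild type and 131 and 129 FPKM in GdX-deficient spleen at 90 min, the opposite side from the members, and 156 and 120 FPKM against 194 FPKM at 6 h. Of 8 mast cell and basophil markers, 2 reached a mean of 1 FPKM, and the list summed to 33.2 and 35.9 FPKM against 45.3 and 80.5 FPKM at 90 min and to 13.5 and 19.9 FPKM against 39.9 FPKM at 6 h. Of the 2 tested, Hdc had a log2 difference of 0.94 at 90 min and Prss34 of -0.32, and neither passed. Of 5 eosinophil markers 3 reached that mean and Siglecf was at 0 in at least 1 library, and the list summed to 25.6 and 26.3 FPKM against 20.5 and 25.02 FPKM at 90 min and to 14.5 and 10.7 FPKM against 15.99 FPKM at 6 h. The sums of B-cell markers (8 of 8 tested), T-cell markers (8 of 8) and red pulp macrophage markers (9 of 9) were also lowest in wild type at 6 h. For B cells the sum was 1643 and 1562 FPKM in wild type and 1360 and 2274 FPKM in GdX-deficient spleen at 90 min, and 529 and 596 FPKM against 1941 FPKM at 6 h. For T cells it was 476 and 405 FPKM against 344 and 460.1 FPKM, and then 211 and 174 FPKM against 384 FPKM. For red pulp macrophages it was 988 and 1011 FPKM against 913 and 799 FPKM, and then 593 and 475 FPKM against 863 FPKM. Neutrophil markers (10 of 10 tested) stood apart in replicate 2 of GdX-deficient spleen at 90 min, with a sum of 4901 FPKM against 1127 FPKM in its other replicate and 1285 and 821 FPKM in wild type, and at 6 h they summed to 1172 and 814 FPKM against 2661 FPKM. Stromal and endothelial markers (6 of 6) summed to 99.1 and 85.3 FPKM against 55.7 and 55.3 FPKM at 90 min, and to 36.7 and 60.2 FPKM against 93.5 FPKM at 6 h. The sum of proliferation genes (10 of 10) ranged from 376 to 480.2 FPKM over the 7 libraries. Their single log2 differences ran from -1.72 to 0.49 with time in wild type, where 2 of 10 fell. With time in wild type 3 of 8 B-cell, 5 of 8 T-cell and 5 of 9 macrophage markers fell, against 6.32% of all genes. At 6 h the median log2 difference between genotypes was 1.57 for the B-cell, 1.10 for the T-cell and 0.97 for the macrophage markers. It was 1.97 for the members and 0.32 for all genes, each on 1 GdX-deficient library. At 90 min the B-cell and T-cell sums overlapped between genotypes and the macrophage sum was lower in GdX-deficient spleen. For neutrophils, 9 of 10 markers had a log2 difference above 0 at 90 min, with a median of 1.19 against 0.84 for the members, and 0 passed the test. The part of these cell types in the results at 6 h was not tested.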

How the data were processed

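Spleen RNA of 7 libraries was measured. The authors deposited FPKM values in a single table whose headers name each library, per the file headers. The submitters' processing notes name HISAT, HISAT2 2.0.4, Bowtie2 and RSEM and the build GRCm38.p5, without their roles, and filters are not given in the sources used here.

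Values were taken as log2(FPKM + 1), which understates changes of low genes. The 11378 genes averaging 1 FPKM or more entered limma 3.58.1 (R 4.3.3) with trended empirical Bayes, two-sided, with Benjamini-Hochberg adjustment over all of them and a threshold of 0.05. Comparisons within a time or genotype came from a fit of the 4 groups, and those with a covariate from additive fits. The fits were tested on simulated data with independent noise, which lack the replicate differences shared between the wild-type times. Ratios are of mean FPKM. Depth was estimated from the steps of low FPKM values, and fragments behind a value from that depth and the GENCODE transcript length. How reads of near-identical or overlapping genes were shared is not given. Promoters were RefSeq's, of GRCm38.p6.

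The members and gene lists were chosen with earlier results of these data known. The rule named all members, with values per library for transcription factors, Epor, members called in a comparison other than time and the 2 highest of each role. From each pathway list it named the 2 genes with the smallest p with time in wild type and the 2 with the smallest p between genotypes with time as covariate. Some genes that this rule named are not reported here. Per-library values of the remaining members, the globin values and the genes named beside counts were added after their values were seen. Alternatives were a pseudocount of 0.1, no filter or a mean of 5 FPKM, quantile normalization, an equal sum without globins and members, no trend, the replicate number as a block, the 4 libraries of a comparison alone, and each library left out.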

Additional observations from a re-analysis of the deposited data

Results flagged for a closer look

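For Gata1, Nfe2, Car1 and Trim58 the libraries were ordered oppositely by time in the genotypes: the GdX-deficient library at 6 h lay above both GdX-deficient libraries at 90 min, while both wild-type libraries at 6 h lay below both at 90 min. This was so for 945 of the 11378 genes tested (8.31%) and for 4 of 34 members (11.8%). No member passed with time in GdX-deficient spleen, and of these 4 only Gata1 passed in wild type. The log2 interaction was 1.25 for Gata1 (limma adjusted p = 0.336), 1.33 for Nfe2 (0.291), 1.08 for Car1 (0.422) and 0.75 for Trim58 (0.734), none past the threshold, and each rests on 1 library at 6 h. After quantile normalization the change with time in GdX-deficient spleen was -0.01 for Gata1 and -0.25 for Trim58.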

How the results depend on the processing

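The median over the members kept its sign under every alternative run in all 7 comparisons. With no filter on low values, 3 members were called at 6 h between genotypes (0.502% of all genes), 11 with time in wild type (3.54%) and 2 with time and genotype as covariate (0.58%). That last count was 11 (2.94%) with libraries scaled to an equal sum without globins and members. Between genotypes with time as covariate, 0 were called with a pseudocount of 0.1, no filter, a mean of at least 5 FPKM or no trend. With only its own 4 libraries, the 90 min comparison gave 9 (1.59% of all genes). Leaving out each library gave 20 to 30 members at 6 h between genotypes, 0 to 7 at 90 min, 0 to 25 with time as covariate, 0 to 6 for the interaction, 0 to 2 with time in GdX-deficient spleen, 14 to 27 in wild type and 6 to 24 with genotype as covariate. The highest of these counts came with 26.7%, 1.61%, 14.7%, 2.09%, 2.07%, 15.6% and 10.6% of all genes called. Without the 6 h GdX-deficient library, the comparisons that need it give no value.

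The replicate numbers were not taken as pairs, since not every pair of groups correlated above 0.1: deviations of same-numbered libraries correlated at -0.1203 between the genotypes at 90 min, 0.7676 between the wild-type times and 0.07974 between GdX-deficient spleen at 90 min and wild type at 6 h (11378 genes). With the number as a block the members called were 0 at 90 min, 1 with time as covariate, 30 at 6 h (29.7% of all genes called), 27 with time in wild type (20.6%), 16 with genotype as covariate (6.72%), and 0 for the interaction and for time in GdX-deficient spleen. The crossed pairing at 90 min, added after seeing the data, called 0 members and 2 genes in all. Under the block, signs turned for the interaction of Bpgm (-0.099) and for time in GdX-deficient spleen of Aqp1 (0.0508), Ermap (0.0103) and Klf1 (0.0306).

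Quantile normalization turned Fbxo7 at 6 h (-0.0255), Car1 at 90 min (0.0943), the interaction of Sptb (-0.1265) and time in GdX-deficient spleen of Gata1 (-0.0145) and Trim58 (-0.2471), and the equal sum turned Car1 at 90 min (0.1889). Leaving out a library turned Tmod1 at 6 h (-0.4069 to 1.7403), at 90 min (-0.0416 to 0.3832), with time as covariate (-0.0218 to 0.694) and with time in wild type (-1.8846 to 0.2627). It turned Car1 at 90 min (-0.0716 to 0.0315) and with time as covariate (-0.0201 to 0.5437), and Xpo7 with time in wild type (-0.9817 to 0.0071). Interactions that turned were those of Bpgm (-0.2038 to 0.2342), Ctse (-0.1 to 1.0558), Epb41 (-0.5043 to 0.9526), Mkrn1 (-0.0912 to 0.2949), Sptb (-0.1829 to 0.975), Tmod1 (-0.5777 to 1.5695) and Xpo7 (-0.2589 to 0.7298). Apart from settings that test fewer samples or more genes, the cause was not tested. Depth limits Icam4, Trim58 and Tfr2 at 6 h in wild type, where a value rests on as few as 16 fragments.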
